A study of Mus musculus with 4 samples.

Results

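B cell genes were examined on 4 microarrays of mouse type 1 conventional dendritic cells (cDC1), as 31 genes listed by symbol for their known roles in B cells. They were chosen with earlier results of these data known. The list named 29 genes that had a probe set of their own among the 17544 named genes, and 28 of these had a signal past a fixed limit, out of 11091 genes past it. The limit was 5.43 on the log2 scale, the median of all values, reached on at least 1 array, and is not a measured background. Vpreb3 stayed below it on all arrays, Cd72 was named only on a probe set that carries a further gene symbol, and Cd38 was not matched to a probe set here.

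The mice were C57BL/6, 10 weeks old and female by their labels, and the cells were either wild type (WT) or XCR1-deficient (KO). XCR1 is the receptor of the chemokine XCL1 and is found mainly on cDC1. The groups were WT with LPS at 100 ng/ml, WT with the same LPS and recombinant mouse XCL1 at 100 ng/ml, KO with LPS, and KO with LPS and XCL1, so every group had received LPS, a bacterial ligand of Toll-like receptor 4. Each group had 1 array, so no difference below has a replicate, an error or a p-value, and the number of arrays limits the precision. The sources used here do not give the tissue, the sort, how XCR1 was deleted, the time of treatment or any pooling of mice.

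B cells recognise antigen through membrane immunoglobulin, which signals through the paired chains CD79A and CD79B. The kinases SYK, BLK and BTK and the adaptor BLNK pass the signal to PLCG2, and co-receptors such as CR2 and CD22 raise or lower it. PAX5, EBF1 and the OCT2 cofactor encoded by Pou2af1 keep the lineage in place. Dendritic cells are not a B lineage, but they share several of these genes, among them Syk, Btk, Btla and Pik3ap1. The members were therefore also split by general knowledge into 17 mainly of the B lineage, 16 of them past the limit, and 14 shared with other leukocytes, 12 of them past it.

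The promoters of 4 members are shown because 3 of them were lower by at least 1.5-fold in KO in one or both comparisons with WT, and Pik3ap1 had the highest difference the other way. RefSeq (GRCm38.p6) gave windows from 250 bases before to 50 after a transcription start for 26 of the 31 members, 32 windows in all. Capitals mark the E-box CAGGTG on either strand, a sequence bound by the B lineage factor E2A. Cd79a is at chr7:24897247-24897546 on the plus strand, Cr2 at chr1:195176670-195176969, Fcer2a at chr8:3690812-3691111 and Pik3ap1 at chr19:41385053-41385352, the last 3 on the minus strand. Fcer2a has 3 windows, and the one with most matches is shown.
Cd79a: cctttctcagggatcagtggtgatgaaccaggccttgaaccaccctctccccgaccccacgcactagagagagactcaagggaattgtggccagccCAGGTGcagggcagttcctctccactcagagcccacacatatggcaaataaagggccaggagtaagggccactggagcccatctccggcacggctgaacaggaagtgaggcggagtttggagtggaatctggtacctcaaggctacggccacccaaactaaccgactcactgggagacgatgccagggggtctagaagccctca
Cr2: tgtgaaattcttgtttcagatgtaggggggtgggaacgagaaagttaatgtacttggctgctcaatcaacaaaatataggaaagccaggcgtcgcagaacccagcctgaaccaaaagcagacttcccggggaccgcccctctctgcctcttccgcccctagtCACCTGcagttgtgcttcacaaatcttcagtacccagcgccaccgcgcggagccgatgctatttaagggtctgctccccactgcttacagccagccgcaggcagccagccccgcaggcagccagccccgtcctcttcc
Fcer2a: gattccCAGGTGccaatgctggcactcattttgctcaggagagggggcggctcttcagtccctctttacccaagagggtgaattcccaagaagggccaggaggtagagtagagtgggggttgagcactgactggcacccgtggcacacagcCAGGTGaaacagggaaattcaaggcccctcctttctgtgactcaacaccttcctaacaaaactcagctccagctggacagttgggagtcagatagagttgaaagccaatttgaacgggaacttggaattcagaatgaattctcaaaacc
Pik3ap1: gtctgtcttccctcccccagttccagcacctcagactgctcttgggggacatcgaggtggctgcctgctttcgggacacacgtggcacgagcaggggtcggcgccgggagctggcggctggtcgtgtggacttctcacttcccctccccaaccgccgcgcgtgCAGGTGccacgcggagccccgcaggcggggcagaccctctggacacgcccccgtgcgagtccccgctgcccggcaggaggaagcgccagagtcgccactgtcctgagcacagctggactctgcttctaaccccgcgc

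The E-box was found in 15 of the 32 member windows (46.9%) and in 20.2% of all 32851 windows of this length. It stood in the Pik3ap1 window as well as in those of Cd79a, Cr2 and Fcer2a, so its presence did not separate the direction of the differences. The octamer ATGCAAAT, the site of OCT factors, was found in 3 member windows (9.38%), those of Blnk, Cnr2 and Vpreb3, against 1.74% of all windows. The core of the EBF1 site, CCCNNGGG, was found in 3 (9.38%), those of Bank1, Cd22 and Cd55, against 13.7%. Both strands were searched for each motif. The windows shown hold no octamer and no EBF1 core, so no marked E-box overlaps either, and a match is a description of letters only.

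Facts of the whole set of arrays bear on all that follows. The arrays correlated at 0.983 or more across genes, which are not independent replicates. Of 16 cDC1 markers, 14 were past the limit, with a mean log2 signal of 8.93 in WT and 8.81 in KO with LPS, and Clec9a was not matched here. Xcr1 gave 6.42 and 7.19 in WT and 5.54 and 5.11 in KO, the direction of the labels. The labels' array names carry 2 prefixes with 0 shared between the genotypes. What the prefixes mark is not stated, and it cannot be told apart from genotype. Xist, the RNA that coats the inactive X chromosome, gave 7.95 and 7.91 in WT and 4.64 and 4.57 in KO, while the Y-linked genes Eif2s3y, Uty and Kdm5d lay between 7.01 and 8.89 on all arrays. The part of sex in the differences was not tested.

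**Figure D1:**
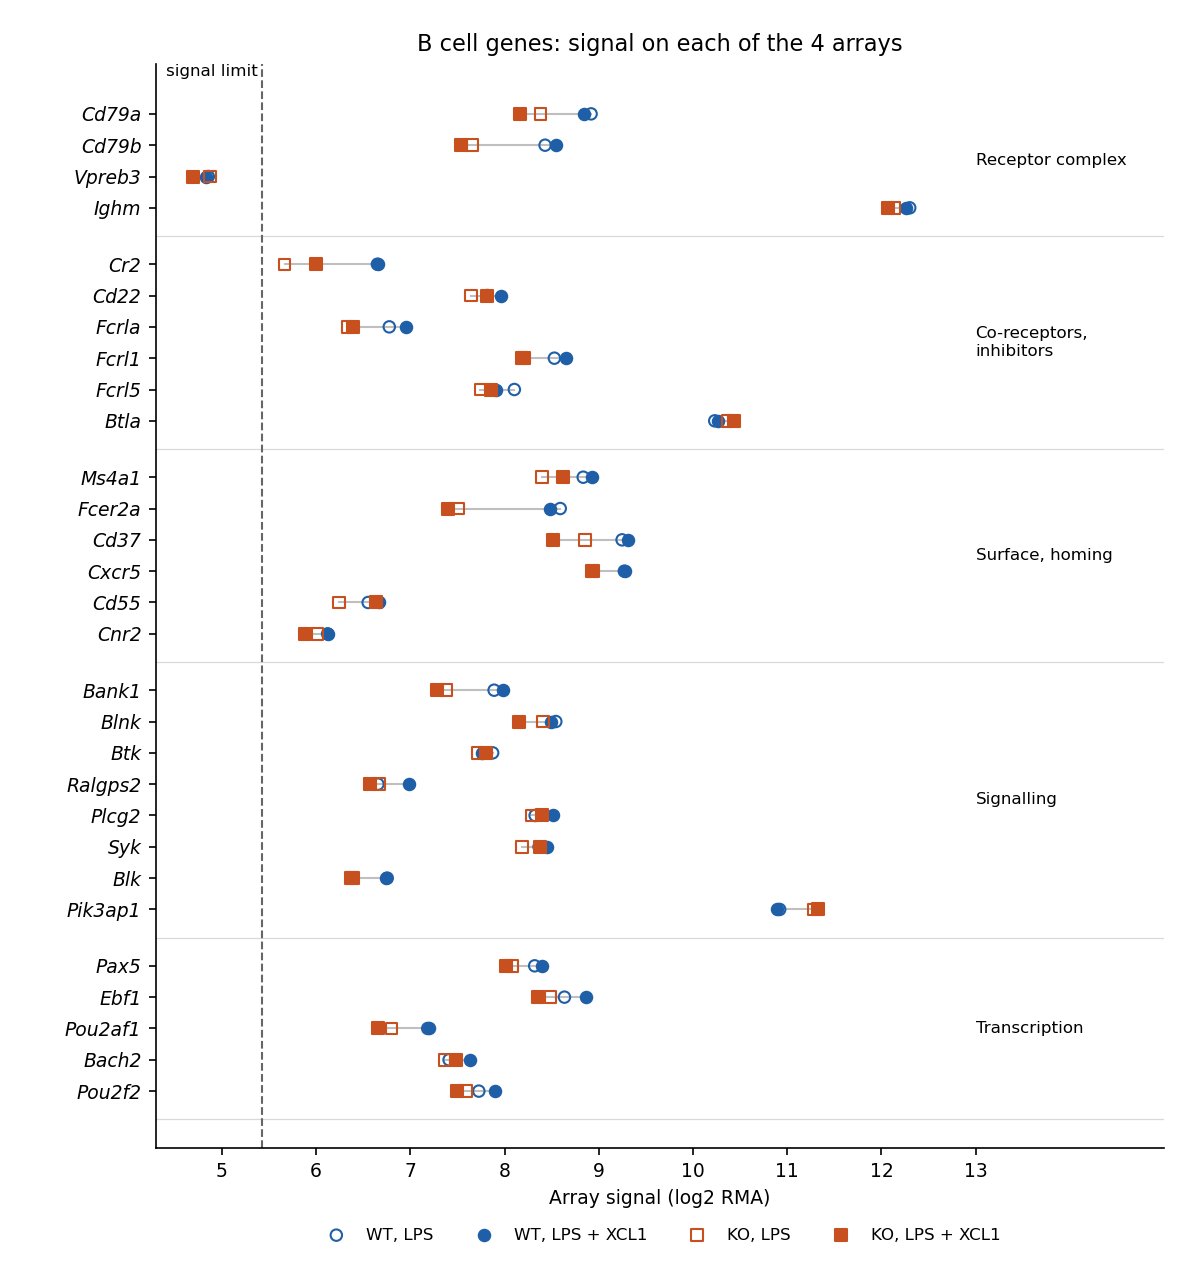
Log2 array signal of the 29 matched B cell genes (rows, grouped by role) on each of the 4 arrays, with circles for WT, squares for KO, open symbols for LPS and filled symbols for LPS with XCL1. The dashed line is the signal limit of 5.43, and both squares lie left of both circles for Fcer2a, Cd79b and Cr2 but right of them for Pik3ap1.

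B cell genes had lower signals in KO than in WT cells, both without and with XCL1. The median log2 difference of the 28 genes was -0.27 with LPS and -0.36 with LPS and XCL1, beside -0.05 and -0.04 for all 11091 genes. In each pair 25 of 28 lay below 0, where 60.1% and 56.7% of all genes did, and 24 did so in both pairs, against 42.2%. Both KO arrays lay below both WT arrays for 19 of the 28, beside 33.2% of all genes, and above both for 2, Btla and Pik3ap1, beside 18.9%. Since the members were chosen with earlier results of these data known, these shares describe the list and do not test it. In such bulk RNA, fewer cells of a type and less RNA per cell cannot be told apart.

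Few members passed 1.5-fold (0.58 on the log2 scale). With LPS 3 were lower, beside 1.01% of all genes, and with LPS and XCL1 6 were lower, beside 1.79%. The 3 genes Fcer2a, Cd79b and Cr2 were lower in both pairs, beside 0.298% of all genes, and Cd37, Bank1 and Cd79a with LPS and XCL1 alone. No member was higher by 1.5-fold in either pair, beside 1.01% and 1.69% of all genes. Setting the gene median of each array to the same value adds 0.10 to every difference in both pairs. All genes then split into 0.469% lower and 1.9% higher with LPS, and 0.839% and 3.01% with LPS and XCL1. With this centring 23 and 22 of the 28 members lay below 0, and the share of all genes below 0 was not counted. The member medians were then -0.17 and -0.26, beside 0.05 and 0.06 for all genes.

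**Figure D2:**
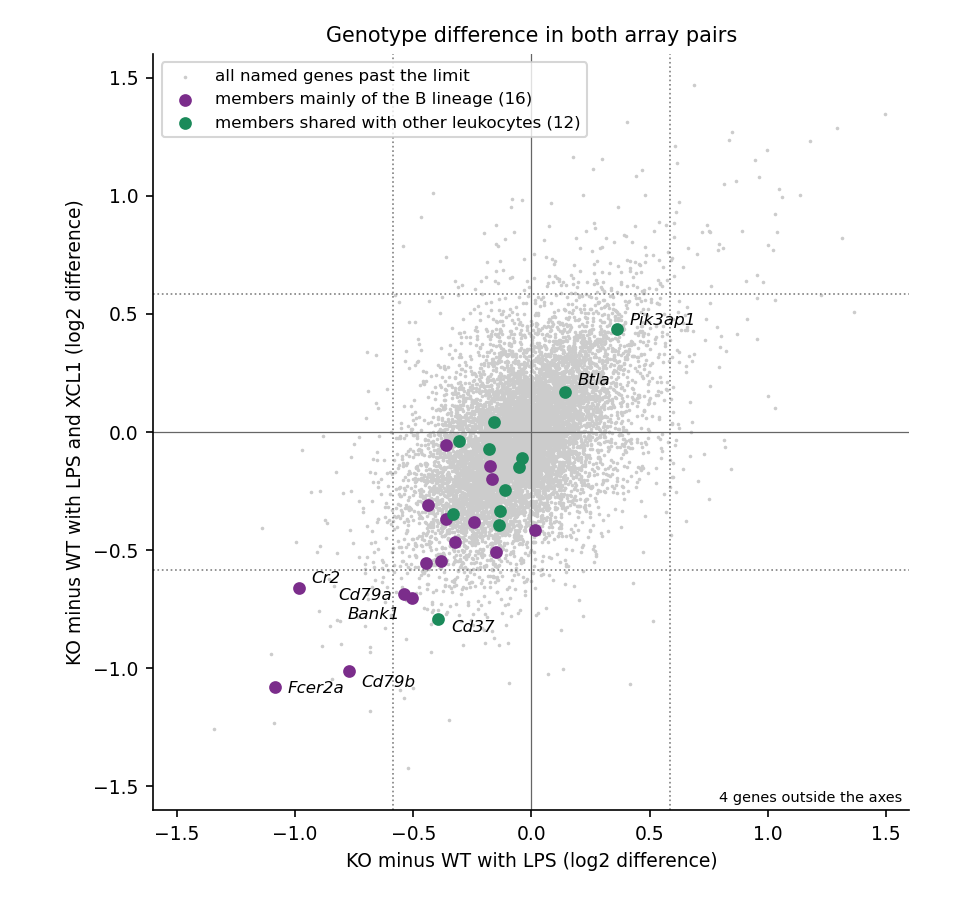
Log2 difference of KO minus WT with LPS (horizontal) and with LPS and XCL1 (vertical) for 11091 genes (grey) and the 28 B cell genes past the limit (coloured by whether they are mainly of the B lineage or shared), with dotted lines at 1.5-fold. Fcer2a, Cd79b and Cr2 lie beyond the lines on both axes at the lower left, and Pik3ap1 at 0.36 and 0.44 lies furthest to the upper right among the members.

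The receptor chains themselves were among the lower genes. Cd79b, the beta signalling chain, gave 8.43 with LPS and 8.54 with XCL1 added on the WT arrays, and 7.66 and 7.53, in that order, on the KO arrays. The genotypes did not overlap, and Cd79b was 1.71-fold lower with LPS (-0.77) and 2.01-fold lower with LPS and XCL1 (-1.01). Cd79a, its partner chain, gave 8.92 and 8.85 in WT and 8.38 and 8.16 in KO. Both KO signals lay below both WT signals, with differences of -0.54 and -0.69, the second past 1.5-fold. Vpreb3, a chaperone-like protein of early B cells, gave 4.86 and 4.83 in WT and 4.87 and 4.69 in KO, all under the limit.

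Ighm, the heavy chain of IgM, differed far less on its main probe set. That probe set gave 12.30 and 12.27 in WT and 12.14 and 12.07 in KO, where the highest value of any probe set was 13.7, with differences of -0.17 and -0.20. With the mean of its probe sets in place of the main one, the second difference was 0.06. Ighm was the only member with several probe sets, 7 in all, and they did not differ alike. With LPS they ranged from -0.63 to 0.30 with 5 of 7 below 0, and with LPS and XCL1 from -0.41 to 0.57 with 3 of 7 below 0. Immunoglobulin genes share sequence, so which transcripts each probe set measured is uncertain.

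Other immunoglobulin probe sets were looked up by symbol, as variable segments and the gamma, alpha and epsilon heavy chains. Of 21, 14 were past the limit, with medians of -0.39 with LPS and -0.32 once XCL1 was added. In both pairs 10 of 14 lay below 0, beside 42.2% of all genes. By 1.5-fold 3 were lower and 1 was higher in both pairs, beside 0.298% and 0.406% of all genes. Those shares count genes, from which antigen receptor segments were left out. Igkv5-43 had several of the probe sets past the limit, all below 0 in both pairs. Ighg3, the IgG3 heavy chain, gave 7.86 and 7.68 in WT and 6.51 and 6.42 in KO, a difference of -1.34 and -1.26. Another Ighg3 probe set, under the limit on all arrays, was at -0.64 and 0.43. Igkv4-59 was at -1.07 and -0.81 and Igkv4-72 at -0.82 and -0.79. Igkv9-120 went the other way, from 9.62 and 9.69 in WT to 10.66 and 10.56 in KO. These 4 were named after their values were seen.

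**Figure D3:**
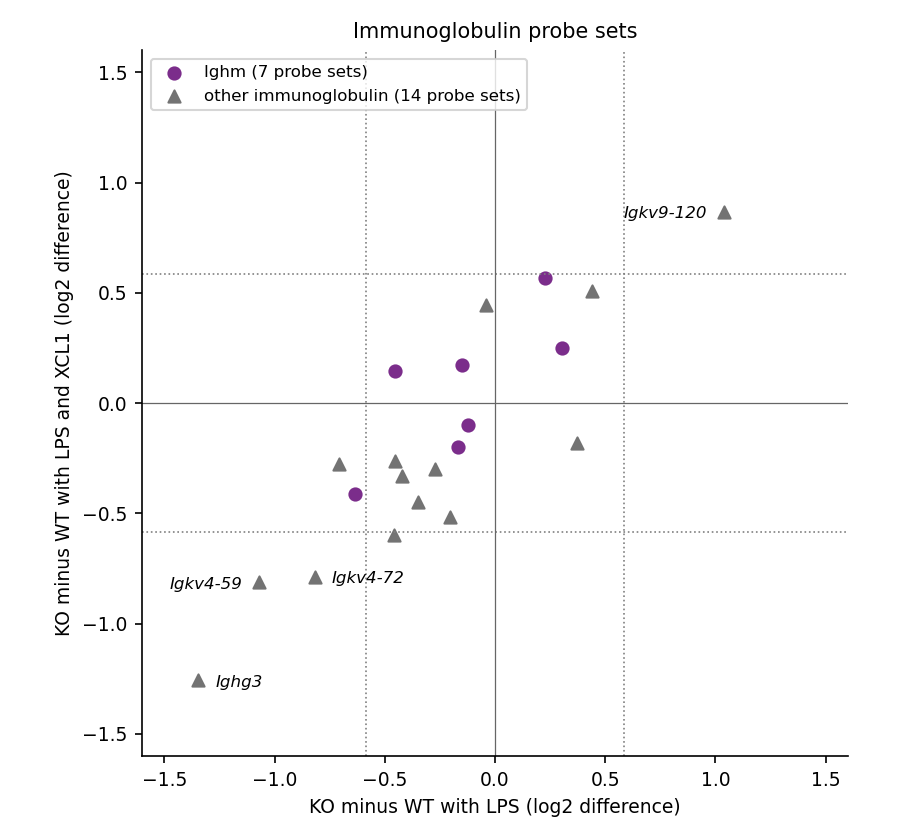
Log2 difference of KO minus WT with LPS (horizontal) and with LPS and XCL1 (vertical) for the 7 Ighm probe sets (circles) and 14 other immunoglobulin probe sets past the limit (triangles), with dotted lines at 1.5-fold. The Ighm probe sets scatter around 0 on both axes, and Ighg3 at -1.34 and -1.26 lies opposite Igkv9-120 at 1.04 and 0.87.

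Of 6 co-receptors and inhibitory receptors past the limit, 5 were below 0 in both pairs, beside 42.2% of all genes. Cr2 alone passed 1.5-fold and Btla was above 0. Cr2, a complement receptor of B cells that is also carried by follicular dendritic cells, gave 6.65 and 6.66 in WT and 5.67 and 6.00 in KO. The KO signals were below both WT signals, 1.98-fold with LPS (-0.98) and 1.58-fold with LPS and XCL1 (-0.66). With each array centred, the second difference was -0.56 and missed 1.5-fold. Fcrla, an intracellular Fc receptor-like protein of B cells, was at -0.44 and -0.55, and the Fc receptor-like genes Fcrl1 and Fcrl5 were at -0.32 and -0.47 and at -0.36 and -0.05. Cd22, an inhibitory lectin receptor, was at -0.17 and -0.14, and its signals in the genotypes met at 7.82. Btla, an inhibitory receptor that cDC1 also carry, was at 0.14 and 0.17, with 10.23 and 10.27 in WT and 10.37 and 10.44 in KO.

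Of the surface and homing genes, Fcer2a showed the largest differences of any member in both pairs. It encodes CD23, the low-affinity IgE receptor of mature B cells, and gave 8.59 and 8.48 in WT and 7.50 and 7.40 in KO. The genotypes were separated by nearly a full log2 unit at their closest, and Fcer2a was 2.12-fold lower with LPS (-1.09) and 2.11-fold lower with LPS and XCL1 (-1.08). It was the only member past 2-fold in both pairs, beside 0.0361% of all genes. With each array centred, Fcer2a was at -0.98 and -0.98 and missed 2-fold. Cd37, a tetraspanin found on many leukocytes, gave 9.25 and 9.31 in WT and 8.85 and 8.52 in KO, at -0.39 and -0.79. Its KO signals lay below both WT signals, and only the second difference passed 1.5-fold.

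The other 4 surface genes differed by less than 1.5-fold in both pairs. Ms4a1, which encodes CD20, was at -0.44 and -0.31, and Cxcr5, the receptor that guides B cells into follicles, was at -0.33 and -0.35 with nearly equal signals within each genotype (9.27 and 9.28 in WT, 8.94 and 8.93 in KO). The cannabinoid receptor gene Cnr2 was at -0.11 and -0.25. Cd55, a regulator of complement, was at -0.31 and -0.04, and its KO signal with XCL1 (6.63) lay between the WT signals of 6.55 and 6.67.

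Of 8 signalling genes, 5 were below 0 in both pairs, beside 42.2% of all genes, and Bank1 alone passed 1.5-fold, in 1 pair. Bank1, a scaffold of B cell receptor signalling, gave 7.89 and 7.99 in WT and 7.38 and 7.28 in KO, at -0.50 and -0.70. The genotypes did not overlap, and the second difference passed 1.5-fold. Blk, a Src family kinase of B cells, was at -0.36 and -0.37, and the adaptor Blnk at -0.13 and -0.34. The kinases Btk and Syk were at -0.16 and 0.04 and at -0.18 and -0.07, and the phospholipase Plcg2 at -0.04 and -0.11. The genotypes overlapped for Btk, Syk and Plcg2, while both KO signals of Blk and of Blnk lay below both WT signals. Ralgps2, an exchange factor for Ral, was at 0.02 and -0.41. Pik3ap1, which encodes the adaptor BCAP that B cells share with myeloid cells, gave 10.92 and 10.89 in WT and 11.28 and 11.33 in KO. Both KO signals were the higher ones, at 0.36 and 0.44, within 1.5-fold.

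Transcription factors of the lineage stayed within 1.5-fold. All 5 were below 0 in both pairs, beside 42.2% of all genes. The exception was Bach2 with LPS, at 0.05 once arrays were centred and at 0.016 after cyclic loess. Pou2af1, the B cell cofactor of OCT proteins, was at -0.38 and -0.54, with 7.18 and 7.20 in WT and 6.80 and 6.66 in KO. Pax5 was at -0.24 and -0.38, Ebf1 at -0.15 and -0.51, and Pou2f2, which encodes OCT2, at -0.14 and -0.39. In these 4 genes both KO signals lay below both WT signals. Bach2, a repressor active in B and T cells, was at -0.05 and -0.15, and its genotypes overlapped.

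The 16 members mainly of the B lineage lay lower than the 12 shared members. Their medians were -0.37 with LPS and -0.49 with LPS and XCL1, against -0.14 and -0.13 for the shared ones. Both KO arrays lay below both WT arrays for 14 of the 16 and for 5 of the 12, beside 33.2% of all genes, a share that the second count is near. The 3 genes lower in both pairs were all in the first set, while Btla and Pik3ap1 were in the second. This split by known expression was not tested as a difference. Across the 28 members the genotype differences of the 2 pairs, which share no array, correlated at a Pearson r of 0.815 and a Spearman rho of 0.698, with all points drawn from the same 4 arrays. The differences bore a weaker relation to the mean signal of the gene (r of 0.358, rho of 0.130). The 31 members lie on 15 chromosomes, with 2, Cxcr5 and Pou2af1, on chromosome 9 beside Xcr1, and 0 within 5 Mb of it.

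None of the 28 members, with Ighm on its main probe set, differed by 1.5-fold with XCL1 in either genotype. Outside these values, XCL1 in KO gave 0.62 for Igkv4-59 and -1.12 for Ly6d, a gene of the further B cell list. It also gave 1.10 on another Ighm probe set, whose signal in KO with LPS was 5.15, under the limit. That probe set differed by 0.50 with XCL1 in WT. In WT the 28 differences ran from -0.19 (Fcrl5) to 0.33 (Ralgps2), with a median of 0.07 beside 0.03 for all genes. No member was higher or lower by 1.5-fold, beside 0.225% and 0.334% of all genes. In KO they ran from -0.34 (Cd37) to 0.39 (Cd55), with a median of -0.02 beside 0.04, and again none passed, beside 0.478% and 0.541%. All 28 lay inside the central 95% of all genes in both, which spanned -0.36 to 0.37 in WT and -0.37 to 0.41 in KO. Below 0 were 8 of 28 in WT, beside 41.7% of all genes, and 16 of 28 in KO, beside 40.3%. With so few calls among all genes, a count of 0 among 28 is near the background.

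The effect of XCL1 in WT minus that in KO ran from -0.32 (Cr2) to 0.43 (Ralgps2), with a median of 0.08 beside -0.01 for all genes. None reached 1.5-fold, beside 1.38% higher and 1.54% lower, and 10 of 28 lay below 0, beside 52.2%. Across members, the XCL1 differences in WT and in KO, which share no array, gave a Pearson r of 0.090 and a Spearman rho of 0.182. Cr2 was at 0.01 in WT and 0.34 in KO, and Ebf1 at 0.23 and -0.13. Fcer2a was at -0.11 and -0.10, so its genotype difference was about the same size with and without XCL1.

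**Figure D4:**
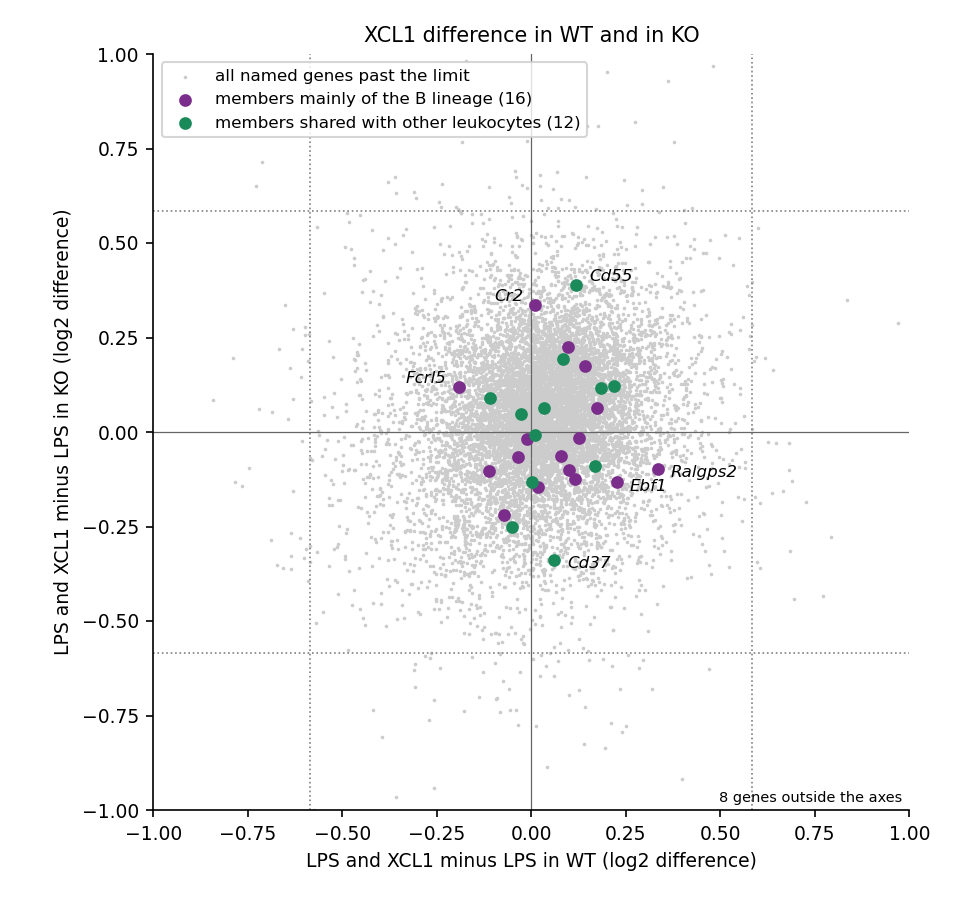
Log2 difference of LPS with XCL1 minus LPS in WT (horizontal) and in KO (vertical) for 11091 genes (grey) and the 28 B cell genes past the limit (coloured), with dotted lines at 1.5-fold. All members lie inside the dotted lines, from -0.19 to 0.33 in WT and from -0.34 to 0.39 in KO.

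Further B cell genes, listed from general knowledge, lay lower in smaller part. Of 30, 24 were past the limit, none of them members, with medians of -0.16 and -0.17. In both pairs 15 of 24 were below 0, beside 42.2% of all genes. By 1.5-fold 2 were lower in each pair, beside 1.01% and 1.79% of all genes, and 1 in both, beside 0.298%. That gene was Fcmr, the receptor for IgM, at -0.74 and -0.78. The B lineage factor gene Spib was at -0.66 and -0.47, Mef2c at -0.48 and -0.45 and Ikzf3, which encodes Aiolos, at -0.42 and -0.42. Ly6d, also carried by plasmacytoid dendritic cells, was at -0.35 and -1.22, and Tlr9, which dendritic cells use as well, at 0.39 and 0.36. Ighd and Igkc were not matched to probe sets of their own here.

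Other genes downstream of the B cell receptor showed no shift as a list. The 23 past the limit, of 26, had medians of -0.02 and -0.03, and 9 were below 0 in both pairs, beside 42.2% of all genes. Prkcb, the protein kinase C isoform of B cell receptor signalling, was lower by 1.5-fold in both (-0.61 and -0.66), and Inpp5d, the phosphatase SHIP1, was at -0.40 and -0.37. Sh3bp2 and Vav3 were at 0.47 and 0.60 and at 0.36 and 0.30. Plasma cell genes, 9 of 12 past the limit, had medians of -0.06 and -0.12. Mzb1, a chaperone of immunoglobulin assembly, was at -0.80 and -0.26, Slamf7 at 0.14 and 0.16 and Prdm1 at -0.03 and 0.50.

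Markers of other cells differed between the genotypes beside the B cell genes. T cell genes, 11 of 15 past the limit, had medians of -0.40 and -0.32. Below 0 in both pairs lay 10 of 11, beside 42.2% of all genes. The mean signal of the T cell list went from 6.90 (WT) to 6.53 (KO) with LPS. Once XCL1 was added it went from 6.86 to 6.44. Cd3g was at -1.10 and -0.94 and Cd3e at -0.68 and -1.18. Cd3d was counted only through the WT array with LPS (5.69), with 5.15 and 5.02 in KO under the limit. Cd28 also lay near the limit in KO, at 5.35 with LPS and 5.43 once XCL1 was added. Erythroid genes, 7 of 14 past the limit, had medians of 0.63 and 0.85 and mean signals of 6.24 and 6.26 in WT and 7.07 and 7.10 in KO. Rhag (5.30 and 5.30 in WT) and Epb42 (4.97 and 5.03 in WT) were under the limit on both WT arrays. They were counted through KO alone, where they are higher, so the erythroid medians partly follow from the limit. Slc4a1, the anion exchanger of red cells, gave 6.12 and 6.32 in WT and 7.62 and 7.67 in KO. Neutrophil genes, 9 of 11 past the limit, had medians of 0.21 and 0.28 and mean signals of 7.24 and 7.19 in WT and 7.49 and 7.60 in KO. S100a8, a calcium-binding protein of neutrophils, was at 0.26 and 1.11, the second the largest of that list. Ngp was at 0.42 and 0.38, Mpo at 0.14 and -0.05 and Elane at -0.07 and 0.20. In both pairs 7 of 9 were above 0, beside 2810 of the 11091 genes. The part of these cells in the B cell gene differences was not tested.

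The remaining lists differed less as a whole. Since centring adds 0.10 to each difference, list medians between -0.10 and 0 turn above 0 with it, those of cDC1 markers and other receptor signalling genes among them. NK cell genes, 8 of 9 past the limit, were at medians of -0.21 and -0.21, macrophage and monocyte genes, 12 of 14, at 0.08 and 0.09, and cDC1 markers at -0.08 and -0.09. Single genes stood far from these medians, as Fcgr1, the high-affinity IgG receptor of macrophages and monocytes, was higher in KO by 1.00 and 1.19. Of the NK cell genes, Eomes was under the limit on both KO arrays (5.31 and 5.33) and was counted through WT alone. Plasmacytoid dendritic cell genes, 9 of 10, were at -0.14 and -0.03. In both pairs 5 of 9 were below 0, beside 42.2% of all genes, and 3 were above 0. Siglech was at -0.52 and -0.57, Cox6a2 at -0.51 and -0.71 and Ccr9 at -0.58 and -0.49. Klk1 was at 0.55 and 0.47, Bst2 at 0.30 and 0.78 and Tcf4 at 0.16 and 0.31. Follicular dendritic cell and stromal genes, which include Cr2, were at -0.02 and -0.20 over 7 of 9. The collagen gene Col1a1 was at 0.24 and 0.33, and the follicular chemokine Cxcl13 at 0.20 and 0.24, with both WT signals of Cxcl13 (5.23 and 5.26) under the limit. The members had mean signals of 8.25 and 8.31 on the WT arrays and 7.95 and 7.96 on the KO arrays.

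**Figure D5:**
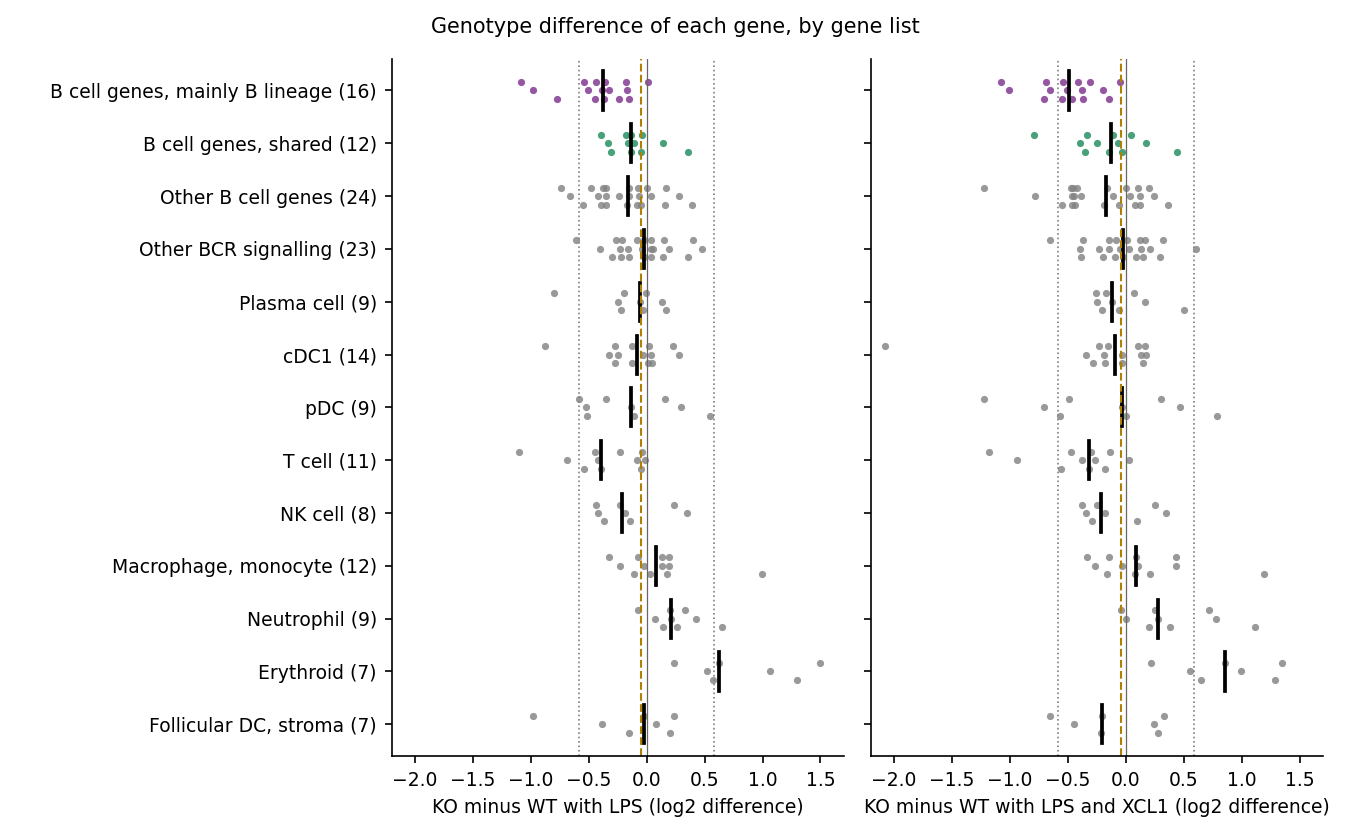
Log2 difference of KO minus WT with LPS (left) and with LPS and XCL1 (right) for each gene past the limit (points) in each gene list, with the number of genes in parentheses, black bars at list medians, a dashed line at the median of all genes and dotted lines at 1.5-fold. Members mainly of the B lineage (-0.37 and -0.49) and T cell genes (-0.40 and -0.32) lie to the left and erythroid genes (0.63 and 0.85) to the right. The erythroid genes Rhag and Epb42 passed the limit through KO alone.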

How the data were processed

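Total RNA was extracted with TRIzol and biotin-labelled sense cDNA was hybridised to MoGene-2_0-st arrays, 1 for each of the 4 groups, per the labels' protocols. The authors deposited log2 signals per probe set, summarised at gene level by RMA per the labels' descriptions. RMA evens out the arrays, so a shift common to most genes cannot be seen. The software, its version and the annotation used for the array were not given in the sources used here.

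Of 41345 probe sets, 23521 had 1 gene symbol in the array's annotation table, 1814 had several and 16010 were unnamed here. Symbols were updated by gene ID through RefSeq (GRCm38.p6). Olfactory receptors, antigen receptor segments, small RNAs and predicted genes (4801 probe sets) were left out of the 17544 genes. For a gene with several probe sets, that with the highest mean was used. A gene was called at 1.5-fold between single arrays, with no test, among genes reaching 5.43 on at least 1 array. Every member is named, with signals on each array for those called, and genes of other lists were named from the 4 with the largest difference shared by both genotype pairs, not all of which are printed. Further list genes were named after their values were seen. The members and lists were chosen with earlier results of these data known. The counting step was run on simulated data with a set noise, as a check of the code. That run does not measure the error of the calls made here. The 8 alternatives were a 2-fold threshold, no limit, a stricter limit (6.91), dim signals raised to the limit, cyclic loess (limma 3.58.1, span 0.7, 3 iterations), centring on the gene median, the mean of probe sets, and members mainly of the B lineage. Python 3.11.15 and numpy 2.4.6 were used.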

Additional observations from a re-analysis of the deposited data

Results flagged for a closer look

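The XCL1 difference had opposite signs in WT and KO for 14 of the 28 B cell genes past the limit, 11 of them above 0 in WT and 3 below, beside 43.6% of all genes with opposite signs, so that the count is near the background. With 1 array a group, this was not tested, and no value reached 1.5-fold. As the effect in WT minus that in KO, the values above 0 were 0.24 for Cd79b, 0.14 for Pax5, 0.36 for Ebf1, 0.20 for Bank1, 0.16 for Pou2af1, 0.40 for Cd37, 0.14 for Fcrl1, 0.43 for Ralgps2, 0.017 for Cxcr5, 0.26 for Pou2f2 and 0.14 for Cnr2. The values below 0 were -0.20 for Btk, -0.31 for Fcrl5 and -0.076 for Pik3ap1. The median over all 28 members was 0.084, from medians of 0.07 in WT and -0.02 in KO.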

How the results depend on the processing

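The lower medians of B cell genes in KO kept their sign under every alternative run. Centring each array moved them to -0.17 with LPS alone and -0.26 after XCL1 was added, and the members mainly of the B lineage gave -0.49 in the second pair. At 2-fold 1 member was lower with LPS alone, 2 in the second pair and 1 in both. These calls were made without centring. With it Fcer2a was at -0.98 in both pairs and Cd79b at -0.91 in the second, short of 2-fold. Fcer2a and Cd79b were lower by 1.5-fold in both pairs under every alternative with that threshold, while Cr2 missed it with centring and fell out under the stricter limit on signal. No member passed the threshold with XCL1 under any alternative. No replicate block was fitted, since the labels give no replicate numbers, and genotype is compared within each treatment instead. Without replicates or detection flags, neither array error nor signal over background could be measured.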
